A study of Mus musculus with 18 samples.

Results

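The chemokine genes described here are the 53 rows of a mouse skin gene table whose symbols are a Ccl, Cxcl, Ccr or Cxcr followed by a number and at most a letter, together with Xcl1, Xcr1, Cx3cl1 and Cx3cr1 and leaving out Ccl21a, of 27743 genes in all. Of these, 35 encode ligands and 18 encode receptors. The choice used symbols alone and no measured value. All 53 symbols matched RefSeq. Chemokines are small secreted proteins that bind G protein-coupled receptors on leukocytes and steer their movement along a concentration gradient. CXC ligands with a glutamate-leucine-arginine motif, such as Cxcl1, Cxcl2, Cxcl3 and Cxcl5, draw neutrophils through Cxcr2, and the Ccr2 ligands Ccl2, Ccl7 and Ccl12 draw monocytes. Others are made in resting skin, such as Ccl27a by keratinocytes and Cxcl12 by fibroblasts. One ligand often binds several receptors, so ligands are given below with a main receptor.

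RNA was measured in skin flaps of mice. The spacer flaps had a printed mesh laid under them, and the skin was taken after 7 days. The meshes differed in diameter and spacing and were made by near-field electrostatic printing. By its design text, the study asked whether the topology of the mesh acts on how cells differentiate within the tissue. The 5 spacer groups are labelled D15L100, D15L150, D15L200, D100L150 and D150L150. Control flaps were left without treatment after the flap model was made. Each group has 3 libraries, and all groups share the flap model, so no intact skin is compared. The labels give no unit or meaning for D and L, no strain, age or sex, and no mesh material. They also do not say whether libraries came from separate animals, so p-values cover only library-to-library spread, part of which may be technical. Whole skin holds many cell types, and in such bulk tissue fewer cells of a type and less RNA per cell cannot be told apart.

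Many chemokine genes lie side by side in the genome. Chromosome 11 holds 14 of the 53, chromosome 9 holds 11, all of them receptors, and chromosome 5 holds 9, all of them ligands. In RefSeq coordinates on GRCm38.p6, Cxcl5, Cxcl3, Cxcl1 and Cxcl2 lie within 146.6 kb at chr5:90759298-90905938. Between Cxcl3 and Cxcl1 lies Cxcl15, which had 5 fragments over all libraries. Ccl2, Ccl7, Ccl11, Ccl12, Ccl8 and Ccl1 lie within 144.2 kb at chr11:82035577-82179812, and Ccl5, Ccl9, Ccl6, Ccl3 and Ccl4 lie within 138.9 kb at chr11:83525778-83664683. Genes of one block could go apart: in D100L150 library 1 Ccl2 had its highest level, 404 FPKM, and Ccl8 of the same block its lowest, 73.4 FPKM.

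The 250 bases before the start of 4 ligand genes are printed. Of these, Cxcl1, Cxcl2 and Cxcl3 are among the genes that varied most widely between libraries. Ccl20 had the largest positive spacer difference, which did not pass the test (limma, adjusted p = 0.139). All 4 were also picked because their starts carry a kappa B-type motif. Such a motif, bound by NF-kappa B, is a known control element of inflammatory chemokine genes. The motif searched was GGG and TTTCC with any 2 bases between them, or its reverse complement on the other strand, GGAAA and CCC with any 2 bases between them. Matches are in capitals, and the sequences run 5′ to 3′ on the plus strand of RefSeq's GRCm38.p6 assembly. Cxcl1 and Cxcl2 hold 2 matches each, and Cxcl3 and Ccl20 hold 1 each. The windows are chr5:90890995-90891244 for Cxcl1, chr5:90903649-90903898 for Cxcl2, chr5:90785851-90786100 for Cxcl3 and chr1:83116516-83116765 for Ccl20.
Cxcl1: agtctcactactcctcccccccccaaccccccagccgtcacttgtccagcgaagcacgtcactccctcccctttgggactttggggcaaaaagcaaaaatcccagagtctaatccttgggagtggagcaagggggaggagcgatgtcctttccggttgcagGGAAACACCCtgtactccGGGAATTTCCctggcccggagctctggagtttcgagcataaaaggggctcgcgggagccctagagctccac
Cxcl2: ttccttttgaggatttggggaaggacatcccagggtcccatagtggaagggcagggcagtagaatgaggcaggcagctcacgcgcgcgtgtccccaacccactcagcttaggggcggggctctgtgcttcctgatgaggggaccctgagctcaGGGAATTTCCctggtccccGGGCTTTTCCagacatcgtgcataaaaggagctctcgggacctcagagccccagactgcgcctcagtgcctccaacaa
Cxcl3: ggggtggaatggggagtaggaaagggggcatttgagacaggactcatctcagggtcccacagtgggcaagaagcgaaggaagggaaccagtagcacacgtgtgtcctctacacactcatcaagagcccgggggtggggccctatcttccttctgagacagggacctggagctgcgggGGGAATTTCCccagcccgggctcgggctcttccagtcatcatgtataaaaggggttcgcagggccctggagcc
Ccl20: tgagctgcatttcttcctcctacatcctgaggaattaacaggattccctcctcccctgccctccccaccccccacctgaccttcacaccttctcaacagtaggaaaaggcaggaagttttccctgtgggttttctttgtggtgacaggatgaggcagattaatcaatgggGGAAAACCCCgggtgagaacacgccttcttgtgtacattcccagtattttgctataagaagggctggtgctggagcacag
The first base of the match nearest the start lay 71 bases before it in Cxcl1, 78 in Cxcl2, 73 in Cxcl3 and 80 in Ccl20. Among the 40 chemokine genes with a promoter window, 6 held the motif, or 15%. Among all 27025 genes with a window, 447 held it, or 1.65%. The other 2 were Ccl9 and the eosinophil receptor gene Ccr3. Ccl4 and Ccl3 varied more widely than Cxcl1 but were not among the 6. Their within-group SD of log2(FPKM + 1) was 1.82 and 1.78, against 1.61 for Cxcl1. A relation of the motif to the spread or to the spacer difference was not tested. A match is a letter pattern and was not measured as a binding site.

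Values are FPKM, which count fragments over gene length and library size, so levels can be compared between genes per length. The libraries held 28422344 to 35327357 fragments, recovered from the steps of the values. Ligand genes summed to 1310.0 to 7286 FPKM in the 15 spacer libraries and to 1246 to 3553 FPKM in the 3 Control libraries. That is 0.296% to 1.62% of all FPKM in spacer libraries and 0.275% to 0.733% in Control libraries. Receptor genes summed to far less, 91.8 to 339 FPKM in spacer libraries and 100.9 to 224 FPKM in Control libraries. Ccl8 was the highest ligand in 12 of the 18 libraries, Cxcl2 in 3, Ccl6 in 2 and Cxcl3 in 1. The highest receptor was Ccr2 in 15 libraries and Ccr1 in the other 3. By mean FPKM over the libraries the order of ligands was Ccl8, Ccl6, Cxcl2, Ccl2, Cxcl3, Ccl7, Ccl3 and Ccl9. Among receptors Ccr2 and Ccr1 led, and Cxcr4 was above Cxcr2 and Cx3cr1. A total of 35 genes, 26 ligands and 9 receptors, reached 1 FPKM in at least 3 libraries and were tested, and 18 were not.

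**Figure D1:**
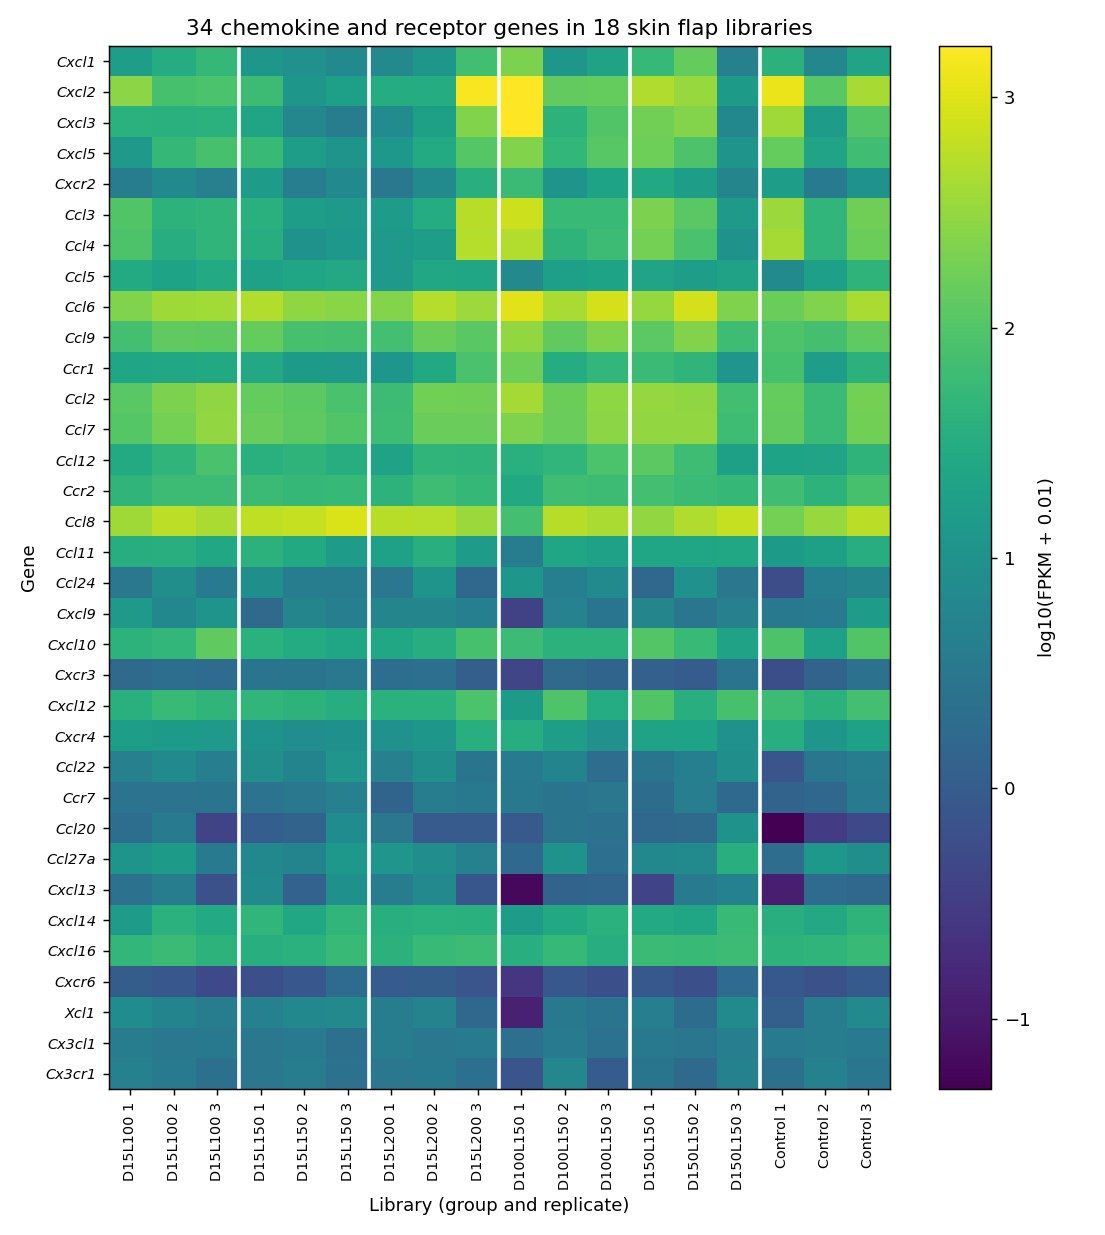
Level of 34 of the 35 tested chemokine and receptor genes in each of the 18 libraries, as log10(FPKM + 0.01), with genes grouped by receptor and white lines between groups. Cxcl2, Cxcl3, Ccl3 and Ccl4 are bright in D15L200 library 3, D100L150 library 1 and Control library 1, while Ccl8 is bright in most libraries and dimmest in D100L150 library 1.

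The cell types in the libraries were checked with marker lists. Keratinocyte markers summed to 3801 to 11643 FPKM in spacer libraries and to 1379 to 3886 FPKM in Control libraries, lowest in Control library 1. Fibroblast markers summed to 3308 to 12124 FPKM in spacer libraries and 3538 to 9916 FPKM in Control libraries. Skeletal muscle markers summed to 1609 to 14538 FPKM in spacer libraries and 6080 to 13620 FPKM in Control libraries. In every Control library they were above the keratinocyte sum. Their median log2 difference from Control ran from 0.20 in D15L100 to -1.90 in D150L150, so tissue content differed between libraries. Neutrophil markers, of which the granule genes Camp, Ltf and Ngp stayed under the filter, summed to 837 to 9909 FPKM in spacer libraries and to 1046 to 6070 FPKM in Control libraries. No list had a marker at 0 in all libraries. Control library 1 had the lowest keratinocyte and NK cell marker sums of the 18 libraries. It also had the highest blood endothelium marker sum, 439 FPKM. Its low T cell and high neutrophil marker sums were shared by D100L150 library 1. Some results against Control are therefore also given without it, but not all. D100L150 library 1 had the highest neutrophil and the lowest T cell marker sums among the 18 libraries. Of the 14 marker lists, 13 had no gene past the test in any comparison. In the keratinocyte list Perp, a desmosome protein, Krt14, the basal keratin, and Dsp, desmoplakin, rose in the mean of the spacer groups against Control, and none of the 3 passed without Control library 1.

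No chemokine or receptor gene passed the test in any comparison. The test was limma on log2(FPKM + 1) with Benjamini-Hochberg adjustment over 13078 genes, and a gene was called at an adjusted p under 0.05. For the mean of the 5 spacer groups against Control, 0 of 35 were called, where 3.56% of all tested genes were, 2.84% higher and 0.726% lower. Without Control library 1, 0 of all 13078 genes were called. With every library the share of all genes called against Control was 2.42% for D150L150, with 2.03% higher and 0.398% lower. It was 1.56% for D15L200, with 1.43% higher and 0.13% lower, and 1.38% for D100L150, with 1.06% higher and 0.321% lower. It was 0% for D15L150 and for D15L100. Between spacer groups it was 0% in every pair and in both series of 3 groups. At an unadjusted p under 0.05, 2 of the 35 passed for the mean of the spacer groups, against 22.4% of all genes. A test on recovered fragments with voom, an alternative model in limma, also called 0 of them in each comparison. A p that misses the threshold does not show that the levels were alike.

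The wide spread between libraries of one group is the main feature of these genes. The within-group SD on the log2(FPKM + 1) scale had a median of 0.74 over the 35 genes, and of 0.21 over all 13078 tested genes. This scale shrinks the spread of low genes, and the 2 sets were not matched for level. Other genes varied too: the neutrophil marker sum ran from 1081 to 8435 FPKM within D15L200. It was above the median of all genes for 34 of the 35, all but Cx3cl1, and above their 90th percentile for 26. Cxcl3 had the widest with 2.17, then Cxcl2 with 2.13, Ccl4 with 1.82, Ccl3 with 1.78, Cxcl1 with 1.61 and Cxcl5 with 1.42. Among receptors Cxcr2 and Ccr1 were widest, with 1.08 and 1.03. For Cxcl2 the highest of 3 libraries in D15L200 was 48.6 times the lowest.

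The ligands of Cxcr2, which call in neutrophils, varied widely between libraries of one group. Cxcl2, also known as MIP-2, is made by macrophages and other cells after injury and was the highest of them. Cxcl2 had 275, 81.1 and 85.9 FPKM in D15L100 flaps, 63, 12.2 and 17.4 in D15L150 flaps, 31.2, 31.7 and 1515 in D15L200 flaps, 1628, 137 and 141 in D100L150 flaps and 485, 330.2 and 14.3 in D150L150 flaps, against 1217, 117 and 425 FPKM in Control flaps. The highest library was 133 times the lowest over the whole series. D15L200 library 3, D100L150 library 1 and Control library 1 were the highest in the series, and all 3 D15L150 libraries lay under the lowest Control library. Cxcl3 had 38.7, 36.5 and 38.6 FPKM in D15L100 flaps, 21.9, 6.07 and 3.92 in D15L150 flaps, 7.59, 18.3 and 233 in D15L200 flaps, 1669, 41.4 and 98.2 in D100L150 flaps and 183, 241 and 6.47 in D150L150 flaps, against 383, 15.7 and 102 FPKM in Control flaps. Cxcl3, in the same block of chromosome 5 as Cxcl2, was highest in D100L150 library 1, and the 3 D15L100 libraries were within 36.5 to 38.7 FPKM. Cxcl1 averaged 33.6 ± 18 FPKM in D15L100, 9.64 ± 2.46 in D15L150, 29.8 ± 35.2 in D15L200, 83.2 ± 116 in D100L150 and 66.5 ± 68.9 in D150L150 flaps, and 22.7 ± 16.8 FPKM in Control flaps (SD, n = 3 each). Cxcl1, or KC, is made by keratinocytes and stromal cells, and D100L150 library 1 with 218 FPKM and D150L150 library 2 with 141 FPKM stood above the rest. Cxcl5 averaged 48.3 ± 33.6 FPKM in D15L100, 27.8 ± 24.3 in D15L150, 49.2 ± 49.9 in D15L200, 129.5 ± 90.3 in D100L150 and 89.2 ± 76.5 in D150L150 flaps, and 78 ± 60.6 FPKM in Control flaps (SD, n = 3 each). Cxcl5, an epithelial neutrophil attractant, reached 228 FPKM in D100L150 library 1, against a highest Control value of 142.

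Cxcr2 had 4.06, 7.14 and 4.69 FPKM in D15L100 flaps, 15.9, 4.20 and 7.22 in D15L150 flaps, 3.27, 7.12 and 35.8 in D15L200 flaps, 59.9, 10.8 and 20.9 in D100L150 flaps and 28, 17.3 and 5.70 in D150L150 flaps, against 16.2, 3.50 and 10.7 FPKM in Control flaps. Cxcr2 is the receptor for these ligands on mouse neutrophils, and every group overlapped with Control. The second neutrophil receptor gene, Cxcr1, passed 1 FPKM in 1 library only, D100L150 library 1 with 1.33 FPKM. For the mean of the spacer groups against Control the log2 difference was -1.85 ± 1.24 (SE, adjusted p = 0.4) for Cxcl2, -0.99 ± 1.27 (SE, adjusted p = 0.672) for Cxcl3 and 0.29 ± 0.63 (SE, adjusted p = 0.815) for Cxcr2. Without Control library 1 it was -1.04 for Cxcl2, 0.08 for Cxcl3 and 0.71 for Cxcr2, so Cxcl3 changed sign. Without Control library 2 it was -2.18 for Cxcl3 and -0.26 for Cxcr2. Cxcr2 had 0.16 without D100L150 library 1 and 0.11 without D15L200 library 3. The standard errors were as large as many of the differences. In D15L150 flaps against Control, Cxcl2 had a log2 difference of -3.98 ± 1.60 (SE, adjusted p = 0.193), the largest in size of any chemokine gene in the comparisons with Control.

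**Figure D2:**
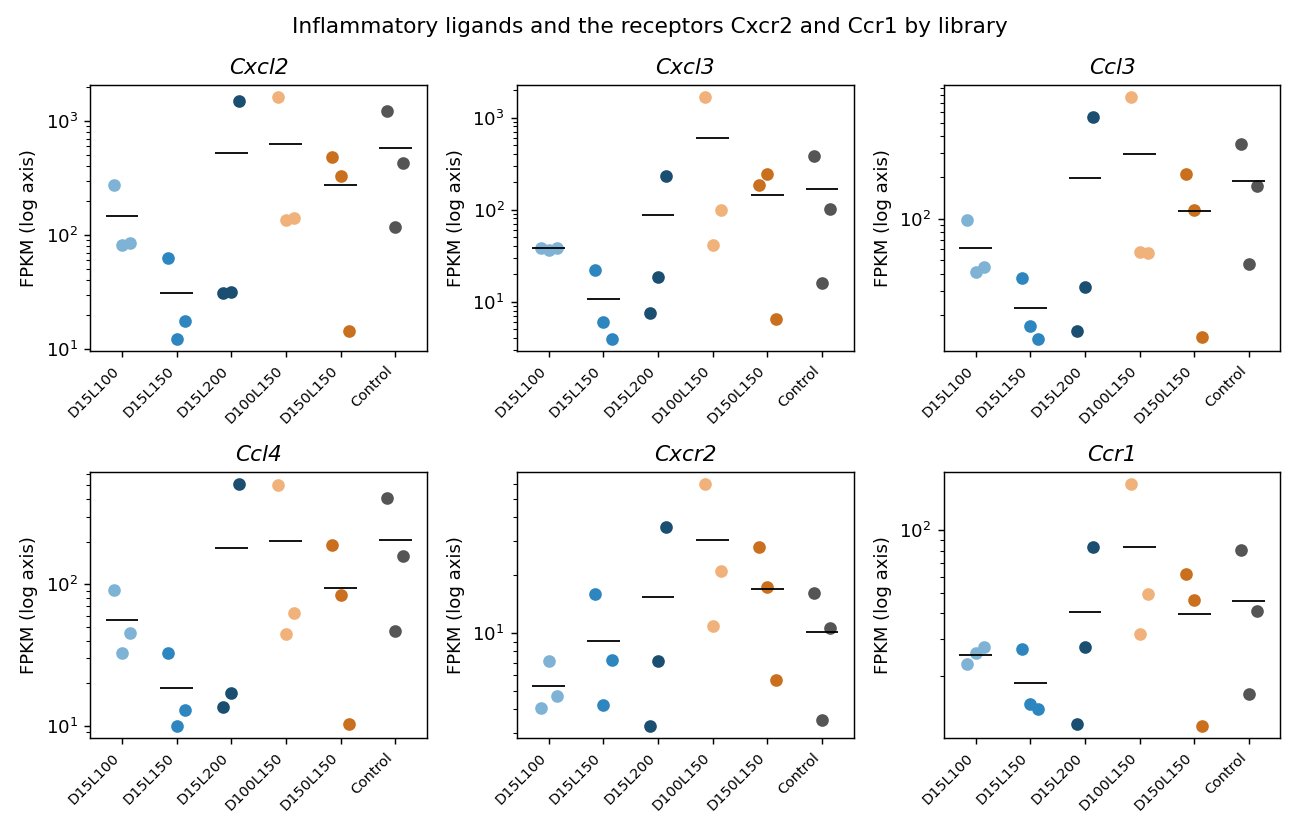
FPKM of Cxcl2, Cxcl3, Ccl3, Ccl4, Cxcr2 and Ccr1 in each library (points, log axis) with the group mean (line), spacer groups left and Control right, n = 3 each. The 3 D15L150 libraries of Cxcl2 lie at 12.2 to 63 FPKM, under the Control libraries at 117 to 1217 FPKM, while single libraries of D15L200 and D100L150 reach 1515 and 1628 FPKM.

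Ccl3 and Ccl4, the MIP-1 chemokines of activated macrophages and neutrophils, were nearly as uneven between libraries as Cxcl2. Ccl3 had 98, 41.4 and 44.8 FPKM in D15L100 flaps, 37.4, 16.7 and 13.4 in D15L150 flaps, 15.3, 31.9 and 547 in D15L200 flaps, 768, 57.6 and 56.9 in D100L150 flaps and 212, 116 and 13.9 in D150L150 flaps, against 348, 47.2 and 172 FPKM in Control flaps. All 3 D15L150 libraries lay under every Control library, and the other spacer groups overlapped with Control. Ccl4 averaged 56.5 ± 30.5 FPKM in D15L100, 18.6 ± 12.3 in D15L150, 181 ± 287 in D15L200, 204 ± 261 in D100L150 and 95 ± 90.5 in D150L150 flaps, and 205 ± 185 FPKM in Control flaps (SD, n = 3 each). The D15L150 libraries, 10 to 32.7 FPKM, also lay under the Control libraries, 47.2 to 408 FPKM. The log2 difference for D15L150 against Control was -2.74 ± 1.34 (SE, adjusted p = 0.271) for Ccl3 and -3.08 ± 1.37 (SE, adjusted p = 0.234) for Ccl4. Ccl5, or RANTES, a product of T and NK cells, had 6.74 to 28.5 FPKM in spacer flaps and 7.29 to 44.2 FPKM in Control flaps, lowest in D100L150 library 1 and Control library 1.

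Ccl6 and Ccl9, mouse myeloid chemokines that bind Ccr1, were steadier than Ccl3 and Ccl4. Ccl6 had 235, 382 and 394 FPKM in D15L100 flaps, 508, 300.3 and 263 in D15L150 flaps, 237, 516 and 369 in D15L200 flaps, 1066, 444 and 862 in D100L150 flaps and 321, 844 and 219 in D150L150 flaps, against 164, 236 and 439.9 FPKM in Control flaps. All 3 D100L150 libraries lay above every Control library. Ccl9 had 74.8, 132 and 124 FPKM in D15L100 flaps, 141, 81.4 and 77.1 in D15L150 flaps, 73.8, 157 and 115 in D15L200 flaps, 309.8, 129 and 232 in D100L150 flaps and 119.8, 228 and 66 in D150L150 flaps, against 93.7, 78.1 and 129 FPKM in Control flaps. Here too the D100L150 libraries lay above the highest Control library, by a margin under 1 FPKM for replicate 2. In D100L150 flaps against Control the log2 difference was 1.52 ± 0.51 (SE, adjusted p = 0.118) for Ccl6 and 1.09 ± 0.45 (SE, adjusted p = 0.181) for Ccl9. These 2 genes had the smallest p of all chemokine genes in that comparison. Ccr1 had 22.7, 25.8 and 27.5 FPKM in D15L100 flaps, 27, 14.6 and 13.8 in D15L150 flaps, 11.7, 27.6 and 83.1 in D15L200 flaps, 167, 31.8 and 49.5 in D100L150 flaps and 61.6, 46.1 and 11.5 in D150L150 flaps, against 80.3, 16.5 and 41 FPKM in Control flaps. Ccr1, a receptor of monocytes and neutrophils, was highest in D100L150 library 1, D15L200 library 3 and Control library 1.

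The monocyte ligands Ccl2, Ccl7 and Ccl12 had a range far narrower than that of Cxcl2. Ccl2 had 115, 214 and 301 FPKM in D15L100 flaps, 139.7, 123 and 83.1 in D15L150 flaps, 63.9, 183 and 174 in D15L200 flaps, 404, 159.9 and 287 in D100L150 flaps and 319.5, 298 and 70.7 in D150L150 flaps, against 143, 60.6 and 188 FPKM in Control flaps. Ccl2, or MCP-1, is the main signal for Ccr2-bearing monocytes. Ccl7 had 108, 186 and 304 FPKM in D15L100 flaps, 155, 126 and 99 in D15L150 flaps, 66.8, 156 and 157 in D15L200 flaps, 220.2, 157 and 274 in D100L150 flaps and 309, 303 and 65.7 in D150L150 flaps, against 138, 59.6 and 179 FPKM in Control flaps. Ccl7, or MCP-3, was 220.2 FPKM where Ccl2 was 404, in D100L150 library 1. Ccl12 had 28.7, 45.9 and 85 FPKM in D15L100 flaps, 37.2, 43.4 and 32.7 in D15L150 flaps, 19.9, 45.3 and 43.5 in D15L200 flaps, 37.3, 47.4 and 87.7 in D100L150 flaps and 119, 65.3 and 18.4 in D150L150 flaps, against 21.1, 21.6 and 44.5 FPKM in Control flaps. Ccl12, or MCP-5, is a mouse ligand of Ccr2. For these 3 genes every spacer group overlapped with Control. The log2 difference of the mean of the spacer groups from Control was 0.52 ± 0.48 (SE, adjusted p = 0.547) for Ccl2, 0.49 ± 0.46 (SE, adjusted p = 0.553) for Ccl7 and 0.68 ± 0.45 (SE, adjusted p = 0.395) for Ccl12. Without Control library 2, the lowest of Control for Ccl2 and Ccl7, it was 0.05 for Ccl2 and 0.03 for Ccl7, and without Control library 3 it was 0.85 and 0.81. Ccr2 had 45.4, 63.8 and 61.8 FPKM in D15L100 flaps, 60.8, 51.9 and 52.4 in D15L150 flaps, 41.9, 66.6 and 51.9 in D15L200 flaps, 27.5, 68.6 and 61.8 in D100L150 flaps and 74.9, 61.6 and 51.5 in D150L150 flaps, against 68.5, 41.7 and 81.4 FPKM in Control flaps. Ccr2 was the most even of the abundant receptors, with a highest library 2.96 times the lowest, and D100L150 library 1 was the lowest.

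Ccl8 was the most abundant chemokine transcript. In mice Ccl8 is a ligand of Ccr8 and attracts Th2 cells. Ccl8 had 382, 602 and 448 FPKM in D15L100 flaps, 614, 678 and 943 in D15L150 flaps, 549, 523 and 345 in D15L200 flaps, 73.4, 538 and 453 in D100L150 flaps and 302, 483 and 674 in D150L150 flaps, against 188, 329 and 563 FPKM in Control flaps. The 3 D15L150 libraries lay above every Control library, 614 to 943 FPKM against a highest Control value of 563. The log2 difference of D15L150 from Control was 1.16 ± 0.61 (SE, adjusted p = 0.3), and 0.77 without Control library 1 (adjusted p = 0.721). Its receptor gene Ccr8 had 0 to 0.719 FPKM in spacer flaps and 0.0275 to 0.183 FPKM in Control flaps, with 0 fragments in 2 libraries, where 3 fragments would be 0.0735 to 0.0913 FPKM. Ccl1, the other Ccr8 ligand, reached 1.14 FPKM at most and had 0 fragments in 3 libraries. The eosinophil attractants Ccl11 and Ccl24 bind Ccr3. Ccl11 averaged 30.4 ± 4.77 FPKM in D15L100, 28.4 ± 12.5 in D15L150, 22.9 ± 10.1 in D15L200, 15.3 ± 9.98 in D100L150 and 23.4 ± 1.00 in D150L150 flaps, and 22.2 ± 9.79 FPKM in Control flaps (SD, n = 3 each). Ccl24, made by macrophages, had 1.62 to 12.2 FPKM in spacer flaps and 0.580 to 5.68 FPKM in Control flaps. Ccr3 had 0.133 to 1.29 FPKM in spacer flaps and 0.181 to 0.528 FPKM in Control flaps.

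Several genes followed Cxcl2 in which library of a group was highest. The library with the most Cxcl2 was replicate 1 in D15L100, D15L150, D100L150, D150L150 and Control, and replicate 3 in D15L200. That library was also the highest for Ccl3 and for Ccl4 in 6 of 6 groups, and for Cxcl3, Cxcl5, Cxcr2, Ccr1 and Cxcr4 in 5 of 6. So 7 of the 34 other tested chemokine genes matched in at least 5 groups, where 4.54% of all tested genes did. Ccl8 went the other way, with its lowest library being the one with the most Cxcl2 in 6 of 6 groups, as did Ccl20 and Cxcr3 in 5 of 6. Of all tested genes, 3.45% did so in at least 5 groups. The sum of neutrophil markers was highest in the same library as Cxcl2 in 6 of 6 groups. These counts describe 18 libraries, and Cxcl2 was picked for them because of its spread.

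Ccl20, the ligand of Ccr6, had the smallest p of these genes for the mean of the spacer groups. It is made by keratinocytes and attracts Langerhans cell precursors and Th17 cells. Ccl20 had 2.11, 3.55 and 0.412 FPKM in D15L100 flaps, 1.12, 1.35 and 7.74 in D15L150 flaps, 3.11, 0.985 and 0.974 in D15L200 flaps, 0.894, 2.76 and 2.42 in D100L150 flaps and 1.60, 1.82 and 10.2 in D150L150 flaps, against 0.0396, 0.301 and 0.483 FPKM in Control flaps. Of the 15 spacer libraries, 14 lay above every Control library, and the exception was D15L100 library 3. The counts behind these values were 10 to 255 fragments in spacer libraries and 1 to 12 in Control libraries. The log2 difference was 1.31 ± 0.49 (SE, adjusted p = 0.139) for the mean of the spacer groups and 1.78 ± 0.63 (SE, adjusted p = 0.139) for D150L150. The D150L150 value was 1.10 without its library 3, the highest (adjusted p = 0.39). On recovered fragments with voom the difference for the mean was 3.19, with an adjusted p of 0.198, and with a pseudocount of 0.1 it was 2.69, with an adjusted p of 0.0565. For D150L150 it was 3.87 with voom (adjusted p = 0.175) and 3.33 with that pseudocount (adjusted p = 0.0719). Since all Control libraries lay under 1 FPKM, Ccl20 was tested only through its spacer libraries. Without Control library 1 the difference for the mean was 1.18, with an adjusted p of 0.492. Its receptor gene Ccr6 had 0.0144 to 0.218 FPKM in spacer flaps and 0.00749 to 0.0457 FPKM in Control flaps, at 1 to 29 fragments. The keratinocyte marker sum was 3801 to 11643 FPKM in spacer libraries and 1379 to 3886 FPKM in Control libraries, and its part in the Ccl20 difference was not tested.

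Ccl22 and Ccl17 bind Ccr4 on regulatory and skin-homing T cells. Ccl22 had 4.68, 7.27 and 4.33 FPKM in D15L100 flaps, 8.59, 5.55 and 11.4 in D15L150 flaps, 4.66, 9.07 and 2.68 in D15L200 flaps, 3.69, 5.42 and 2.05 in D100L150 flaps and 2.74, 4.46 and 8.88 in D150L150 flaps, against 0.772, 2.95 and 4.06 FPKM in Control flaps. The 3 libraries of D15L100 and those of D15L150 lay above every Control library, and the other spacer groups overlapped with Control. The log2 difference was 1.49 ± 0.47 (SE, adjusted p = 0.119) for D15L150, the smallest p of any chemokine gene in any comparison, and 0.91 ± 0.36 (SE, adjusted p = 0.158) for the mean of the spacer groups. Control library 1 was lowest at 0.772 FPKM, and without it the difference for the mean was 0.47, with an adjusted p of 0.651. Over 26 alternative settings the D15L150 difference ran from 1.04 to 1.93, with an adjusted p of 0.0936 to 0.499. Ccl17 had 0 to 0.827 FPKM in spacer flaps and 0 to 0.220 FPKM in Control flaps and was not tested. Ccr4 had 0.0309 to 1.66 FPKM in spacer flaps and 0.0157 to 0.209 FPKM in Control flaps and was likewise under the filter. Ccr7 averaged 2.67 ± 0.0634 FPKM in D15L100, 3.49 ± 1.04 in D15L150, 2.90 ± 1.33 in D15L200, 3.08 ± 0.312 in D100L150 and 2.64 ± 1.38 in D150L150 flaps, and 2.14 ± 1.12 FPKM in Control flaps (SD, n = 3 each). Ccr7 takes dendritic cells and naive T cells to lymph nodes, and its ligand gene Ccl19, which has near-identical copies in the mouse genome, reached 1.09 FPKM at most.

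**Figure D3:**
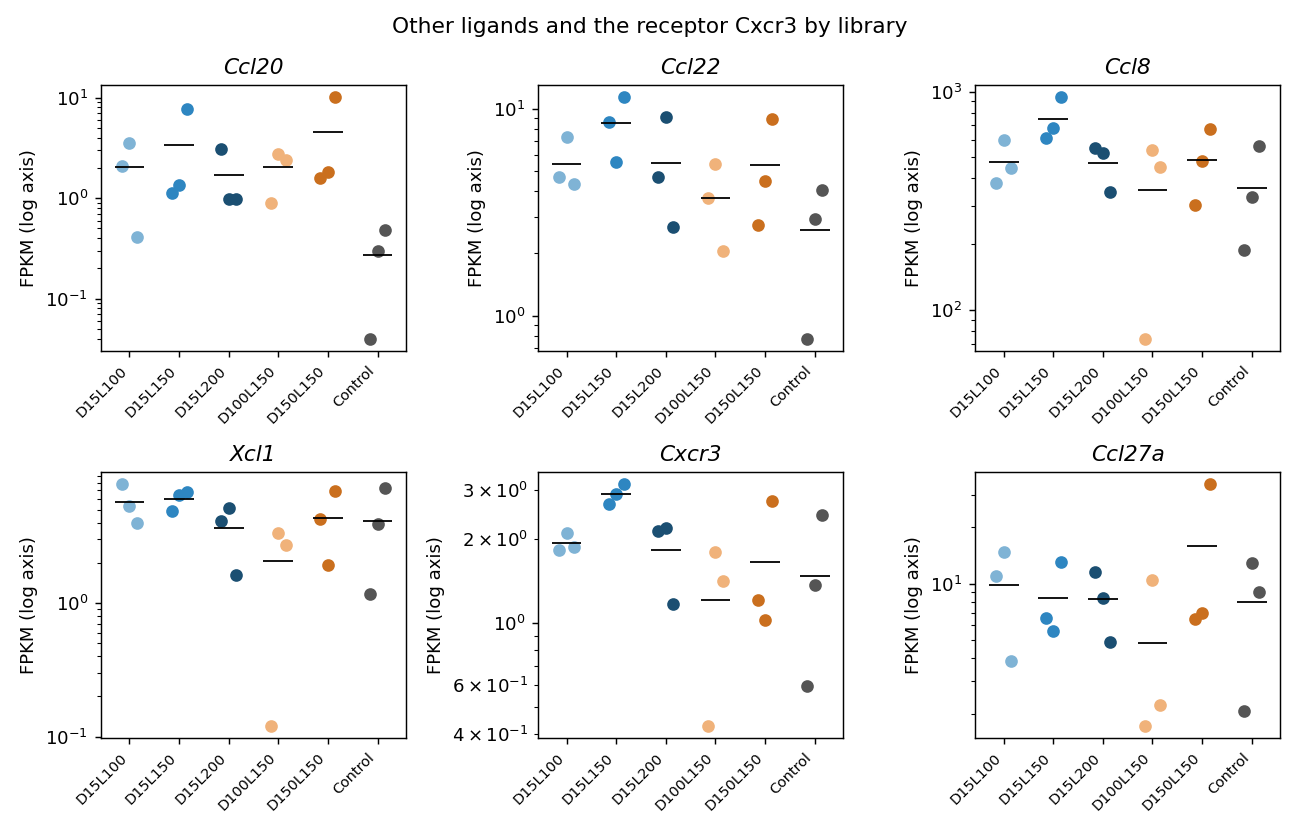
FPKM of Ccl20, Ccl22, Ccl8, Xcl1, Cxcr3 and Ccl27a in each library (points, log axis) with the group mean (line), spacer groups left and Control right, n = 3 each. Of the 15 spacer libraries of Ccl20, 14 lie above the highest Control library at 0.483 FPKM.

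Among genes of lymphocyte traffic, Cxcr3 is the receptor of Th1 and cytotoxic T cells. Cxcr3 had 1.83, 2.11 and 1.87 FPKM in D15L100 flaps, 2.68, 2.90 and 3.17 in D15L150 flaps, 2.15, 2.19 and 1.17 in D15L200 flaps, 0.426, 1.79 and 1.42 in D100L150 flaps and 1.21, 1.02 and 2.74 in D150L150 flaps, against 0.593, 1.37 and 2.45 FPKM in Control flaps. The D15L150 libraries lay above every Control library, with a log2 difference of 0.73 ± 0.30 (SE, adjusted p = 0.198). Without Control library 1 it was 0.45 (adjusted p = 0.637), and with a pseudocount of 0.1 and with voom it was 1.13 and 1.20. Its ligands Cxcl9 and Cxcl10 are induced by interferon. Cxcl9 averaged 10.4 ± 3.63 FPKM in D15L100, 3.95 ± 1.95 in D15L150, 5.28 ± 0.734 in D15L200, 2.73 ± 2.30 in D100L150 and 4.45 ± 1.42 in D150L150 flaps, and 7.63 ± 7.20 FPKM in Control flaps (SD, n = 3 each). Cxcl10 averaged 73.6 ± 49 FPKM in D15L100, 30.7 ± 8.31 in D15L150, 45.2 ± 29.4 in D15L200, 47.7 ± 12.6 in D100L150 and 59.1 ± 40.8 in D150L150 flaps, and 69.3 ± 43.2 FPKM in Control flaps (SD, n = 3 each). All 3 D15L150 libraries of Cxcl9 and of Cxcl10 lay under the D15L100 libraries, and both genes overlapped with Control.

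Cxcl13 attracts B cells through Cxcr5. Cxcl13 had 2.41, 4.14 and 0.647 FPKM in D15L100 flaps, 7.40, 1.29 and 9.38 in D15L150 flaps, 3.95, 6.72 and 0.788 in D15L200 flaps, 0.0531, 1.38 and 1.47 in D100L150 flaps and 0.408, 3.73 and 4.92 in D150L150 flaps, against 0.108, 1.87 and 1.62 FPKM in Control flaps. It ranged widely within D100L150, where the highest library was 27.8 times the lowest, and within D15L200, D150L150 and Control, and no group was apart from Control. Cxcr5 had 0.0125 to 0.636 FPKM in spacer flaps and 0.0686 to 0.566 FPKM in Control flaps. Xcl1 averaged 5.73 ± 1.97 FPKM in D15L100, 6.06 ± 1.04 in D15L150, 3.64 ± 1.84 in D15L200, 2.06 ± 1.71 in D100L150 and 4.37 ± 2.49 in D150L150 flaps, and 4.10 ± 3.04 FPKM in Control flaps (SD, n = 3 each). Xcl1, or lymphotactin, is made by NK and CD8+ T cells, and its lowest value was 0.120 FPKM in D100L150 library 1. Its receptor gene Xcr1, a marker of cross-presenting dendritic cells, had 0.0205 to 0.319 FPKM in spacer flaps and 0.00714 to 0.0880 FPKM in Control flaps. Ccl25 had 0.260 to 0.750 FPKM in spacer flaps and 0.518 to 0.687 FPKM in Control flaps, and its receptor gene Ccr9 had 0.243 to 0.655 FPKM in spacer flaps and 0.116 to 0.184 FPKM in Control flaps. For Ccr9 every spacer library lay above every Control library, at 16 to 86 fragments per library over all groups, but the gene stayed under the filter of 1 FPKM. How many of all genes were placed like this was not counted. With a filter of 0.1 FPKM Ccr9 passed the limma test for the mean of the spacer groups, with a log2 difference of 0.28 ± 0.06 (SE, adjusted p = 0.0403). With no filter it did not (adjusted p = 0.0698). At the filter of 0.1 FPKM 1 of 49 chemokine genes was called, and 419 of all 17812 genes, a similar share. The call therefore does not set the chemokine genes apart.

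Cxcl12, Cxcl14 and Cxcl16 had a within-group SD of 0.71, 0.51 and 0.28 on the log2(FPKM + 1) scale, against the median of 0.74 over the 35 genes. Cxcl12 averaged 46.3 ± 8.84 FPKM in D15L100, 40.8 ± 6.88 in D15L150, 55.2 ± 29 in D15L200, 46.4 ± 41.2 in D100L150 and 71.3 ± 31.3 in D150L150 flaps, and 59.3 ± 17.1 FPKM in Control flaps (SD, n = 3 each). Cxcl12, or SDF-1, holds and recruits cells bearing Cxcr4. Cxcr4 had 17.2, 14.5 and 13.7 FPKM in D15L100 flaps, 10.2, 8.35 and 9.19 in D15L150 flaps, 9.54, 12.3 and 36.3 in D15L200 flaps, 32.2, 17.2 and 9.78 in D100L150 flaps and 20.5, 21 and 9.70 in D150L150 flaps, against 33.9, 12.5 and 19.6 FPKM in Control flaps. Cxcr4 in the 3 D15L150 libraries lay under every Control library, with a log2 difference of -1.06 ± 0.49 (SE, adjusted p = 0.248), and -0.70 without Control library 1 (adjusted p = 0.674). Cxcl14 averaged 27.7 ± 11.1 FPKM in D15L100, 39.5 ± 12.9 in D15L150, 36.4 ± 2.39 in D15L200, 27.2 ± 11 in D100L150 and 35.7 ± 17.1 in D150L150 flaps, and 35.2 ± 8.04 FPKM in Control flaps (SD, n = 3 each). Cxcl14 is made in epithelia, and its receptor is not agreed on. Cxcl16 averaged 50.6 ± 8.53 FPKM in D15L100, 42.9 ± 11.6 in D15L150, 52.9 ± 11 in D15L200, 40.6 ± 11.9 in D100L150 and 59.4 ± 2.78 in D150L150 flaps, and 47.5 ± 6.55 FPKM in Control flaps (SD, n = 3 each). Cxcl16 is the ligand of Cxcr6, and the 3 D150L150 libraries, 56.6 to 62.1 FPKM, lay above the highest Control library at 54.8 FPKM. Cxcr6 had 0.247 to 1.91 FPKM in spacer flaps and 0.653 to 0.955 FPKM in Control flaps.

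Cx3cl1 had 4.01, 3.24 and 3.38 FPKM in D15L100 flaps, 3.11, 3.59 and 2.36 in D15L150 flaps, 4.04, 3.15 and 3.53 in D15L200 flaps, 2.20, 3.61 and 2.43 in D100L150 flaps and 3.32, 2.94 and 4.20 in D150L150 flaps, against 3.60, 3.88 and 3.43 FPKM in Control flaps. Cx3cl1, or fractalkine, is a membrane-bound ligand of endothelium and epithelium and had the smallest spread of all 35 genes. The log2 difference of D100L150 from Control was -0.32 ± 0.15 (SE, adjusted p = 0.245). Cx3cr1 had 4.55, 3.84 and 2.36 FPKM in D15L100 flaps, 3.03, 3.88 and 2.48 in D15L150 flaps, 3.02, 3.40 and 2.24 in D15L200 flaps, 0.756, 6.07 and 1.02 in D100L150 flaps and 2.83, 1.81 and 4.79 in D150L150 flaps, against 2.31, 4.84 and 3.01 FPKM in Control flaps. Cx3cr1 marks resident macrophages and patrolling monocytes, and each group overlapped with Control. Ccl27a, the keratinocyte ligand of Ccr10, had 1.73 to 34.3 FPKM in spacer flaps and 2.08 to 13 FPKM in Control flaps, and Ccl27b had at most 0.806 FPKM. These 2 genes are near-identical copies, so how fragments were split between them is uncertain. Ccl28, the other Ccr10 ligand, had at most 0.234 FPKM, and Ccr10 had 26 fragments over all libraries. Cxcl15, Cxcl17 and Ccl21b had 5, 4 and 11 fragments in all. Ccl21b belongs to a set of near-identical genes, so its count is uncertain too. Cxcl15 and Cxcl17 never passed 3 fragments, and 3 fragments stand for at most 0.0496 FPKM of Cxcl15 and 0.139 FPKM of Cxcl17. These limits cover counting error only.

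Over the 35 tested genes, 21 had a positive log2 difference for the mean of the spacer groups against Control. The median was 0.12 for them and -0.04 for all tested genes. The smallest p belonged to Ccl20, Ccl22 and Ccl6, the last with 0.67 ± 0.39 (SE, adjusted p = 0.334), which was 0.35 without Control library 1 and 1.06 without Control library 3. Against Control, 22 were positive in D15L100, 17 in D15L150, 21 in D15L200, 15 in D100L150 and 23 in D150L150. Counts by sign over all tested genes are not given here. The counts above therefore do not set the chemokine genes apart from a shift of all genes. These 6 comparisons share the Control libraries, so they are not independent of each other.

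**Figure D4:**
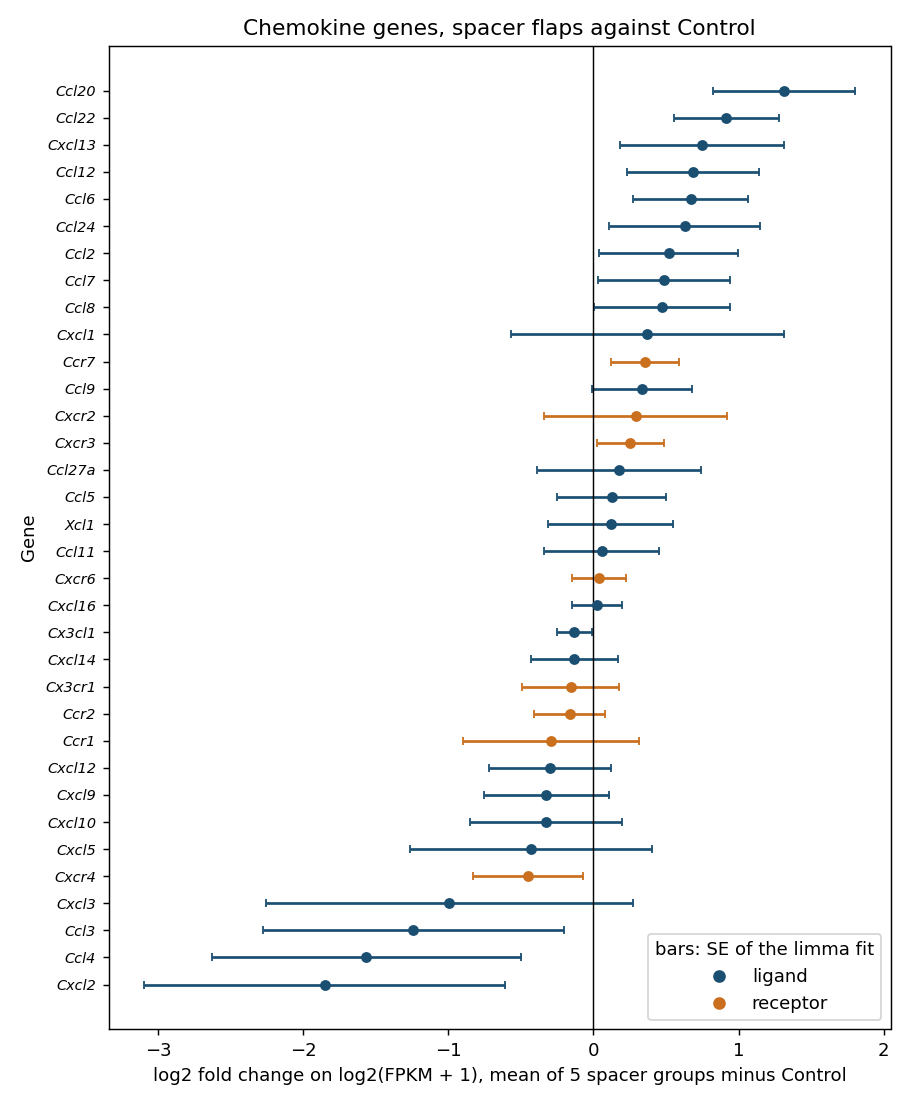
Log2 difference of the mean of the 5 spacer groups from Control for 34 of the 35 tested genes on the log2(FPKM + 1) scale, with the SE of the limma fit as bars, ligands in blue and receptors in orange. Ccl20 at 1.31 is the highest and Cxcl2 at -1.85 the lowest, and none of them passed the test.

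Genes whose libraries did not overlap between groups were counted as a description. Against Control, 4 of 35 in D15L150 lay wholly above, or 11.4%, where 12.4% of all tested genes did. These were Ccl8, Ccl22, Ccl20 and Cxcr3. Another 4 lay wholly below, or 11.4%, where 14% of all did, namely Cxcl2, Ccl3, Ccl4 and Cxcr4. In D15L100 Ccl22 alone lay above, 2.86% against 2.1% of all genes. In D15L200 Ccl20 alone did so, 2.86% against 11.2%, in D100L150 Ccl6, Ccl9 and Ccl20, 8.57% against 11%, and in D150L150 Cxcl16 and Ccl20, 5.71% against 14.3%. No chemokine gene lay wholly below Control in those 4 groups, where 3.97%, 13.8%, 10.8% and 12.1% of all genes did. Ccl20 reached the filter only through its spacer libraries, so its place in these counts is no support for a difference.

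Of the pairs of spacer groups compared, D100L150 against D15L150 and D15L150 against D15L100 had the most genes without overlap. D15L150 against D15L100 had 8 genes wholly below, or 22.9%, where 6.74% of all tested genes were, namely Cxcl1, Cxcl2, Cxcl3, Cxcl9, Cxcl10, Ccl3, Ccl4 and Cxcr4. Wholly above were Ccl8 and Cxcr3, or 5.71%, where 3.34% of all genes were. D100L150 against D15L150 had 9 genes wholly above, or 25.7%, where 9.57% of all were, namely Cxcl1, Cxcl2, Cxcl3, Cxcl10, Ccl2, Ccl3, Ccl4, Ccl7 and Ccr1. Wholly below were 4 genes, or 11.4%, where 7.48% of all were, namely Ccl8, Ccl22, Xcl1 and Cxcr3. In these counts Cxcl3, Ccl3, Ccl4, Cxcr4 and Ccr1 shared their highest library with Cxcl2 in at least 5 of 6 groups. The counted genes are thus not independent of each other.

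For D100L150 against D15L150 the log2 difference was 4.37 ± 1.63 (SE, adjusted p = 0.412) for Cxcl3, 3.66 ± 1.60 (SE, adjusted p = 0.43) for Cxcl2 and -0.88 ± 0.30 (SE, adjusted p = 0.412) for Cxcr3. Without D100L150 library 1 it was 2.81 for Cxcl3, and Cxcr3 had -1.39 with a pseudocount of 0.1 and -1.52 with voom. In that pair 10 of the 35 genes had an unadjusted p under 0.05, where 11.4% of all tested genes did, and 0 were called. For D15L150 against D15L100, 1 of 35, or 2.86%, had an unadjusted p under 0.05, where 4.72% of all tested genes did. It was Cxcl9, with -1.24 ± 0.56 (SE, adjusted p = 0.885). D15L150 is in both pairs, so they are not independent. The neutrophil marker sum was 2261 to 9909 FPKM in D100L150 and 837 to 1577 FPKM in D15L150, against 1169 to 2622 FPKM in D15L100, so it lay wholly higher in D100L150 than in D15L150, as Cxcl2 and Cxcl3 did. Its part in the differences was not tested. In the remaining pairs few genes lay apart. D15L200 lay wholly below D15L100 for Cxcl9, or 2.86% against 7.94% of all genes, and wholly below D15L150 for Ccl8 and Cxcr3, or 5.71% against 3.77%. D150L150 lay wholly above D15L150 for Cxcl16, or 2.86% against 8.2% of all genes, and above D100L150 for the same gene, or 2.86% against 4.39%. The F tests over D15L100, D15L150 and D15L200, and over D15L150, D100L150 and D150L150, called 0 of 35 genes.

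Chemokine genes were then set beside markers of the cells that carry or make them, over 18 libraries with the group means subtracted. In each pair the marker level was the mean log2(FPKM + 1) of a list that holds no chemokine gene. P came from 100000 permutations within groups, two-sided, adjusted over 6 relations. Genes and lists were chosen with earlier results of these data known, so p describes these libraries only. Cxcr2 followed the neutrophil markers, with Pearson's r = 0.961 (permutation p = 5e-05, adjusted 0.0003) and Spearman's rho = 0.957 (permutation p = 8e-05, adjusted 0.00033). Cxcl2 followed them as well, with r = 0.938 (permutation p = 0.00062, adjusted 0.00123) and rho = 0.952 (permutation p = 0.00042, adjusted 0.00084). Without the 2 libraries farthest from the median, D15L200 library 3 and D100L150 library 1, r was 0.942 for Cxcr2 and 0.898 for Cxcl2.

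Cxcr3 followed T cell markers, with r = 0.867 (permutation p = 0.00011, adjusted 0.00033) and rho = 0.851 (permutation p = 0.00011, adjusted 0.00033), and r = 0.776 without Control library 1 and D100L150 library 1. Ccl27a followed keratinocyte markers, with r = 0.813 (permutation p = 0.00082, adjusted 0.00123), rho = 0.794 (permutation p = 0.001, adjusted 0.0015) and r = 0.772 without Control library 1 and D15L100 library 2. For Ccr2 and macrophage and monocyte markers r was 0.545 (permutation p = 0.061, adjusted 0.0732) and rho 0.626 (permutation p = 0.0279, adjusted 0.0335). It was r = 0.630 without Control libraries 1 and 3, so the outcome differed between the measures. Ccr7 showed no detectable relation to dendritic cell markers, with r = 0.109 (permutation p = 0.704, adjusted 0.704) and rho = 0.026 (permutation p = 0.932, adjusted 0.932), and r = 0.209 without D100L150 libraries 1 and 2. The labels name no batch within which these relations could be repeated.

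**Figure D5:**
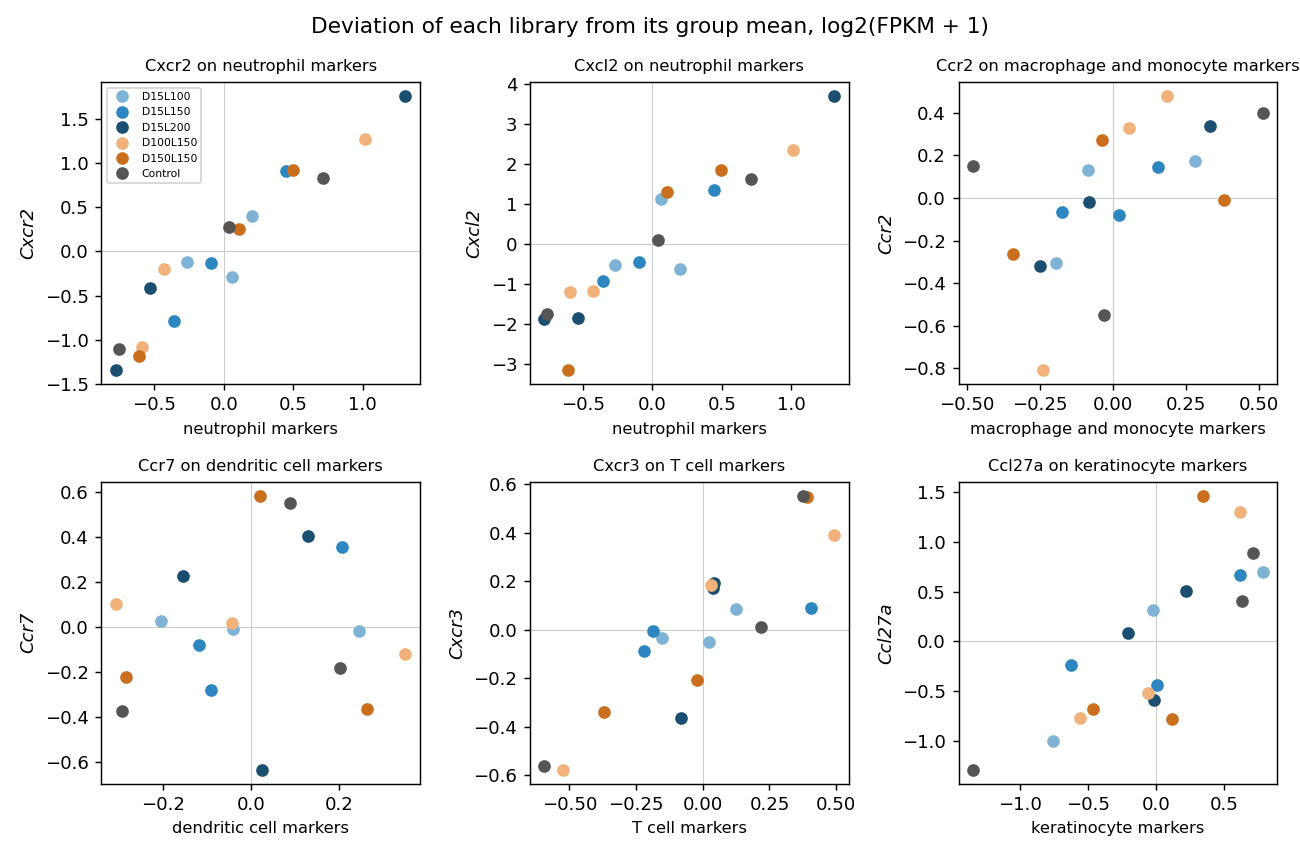
Deviation of each of the 18 libraries from its group mean on the log2(FPKM + 1) scale, for a chemokine gene (vertical axis) and the mean of a marker list (horizontal axis), colored by group. Cxcr2 and Cxcl2 rise with the neutrophil markers (r = 0.961 and 0.938), while Ccr7 shows no such line with the dendritic cell markers (r = 0.109).

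Other genes of the chemokine system were also measured. Of 10 tested scavenging receptors and related genes, among them Ackr1 to Ackr4, which take up chemokines without G protein signalling, and the platelet chemokines Pf4 and Ppbp, 0 passed the test in any comparison. Of 14 tested inducers and feedback genes, 0 passed it either. In that list the log2 difference of the mean of the spacer groups from Control was -1.06 ± 0.95 (SE, adjusted p = 0.534) for Il1b, the cytokine that induces many of these ligands, and -1.10 ± 0.78 (SE, adjusted p = 0.428) for Tnf. Of 19 tested genes of receptor signalling, 1 rose in the mean of the spacer groups against Control, where 2.84% of all tested genes did. It was Gnai3, an inhibitory G protein subunit, with 0.56 ± 0.14 (SE, adjusted p = 0.0483), and it did not pass without Control library 1. In that comparison 3.56% of all tested genes were called, the largest share of any. The median log2 difference in that comparison was 0.27 for the scavenging receptors and related genes, -0.11 for the inducers and feedback genes and 0.00 for receptor signalling, against -0.04 for all tested genes.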

How the data were processed

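TRIzol-extracted RNA from skin flaps was made into sequencing libraries with a VAHTS Universal V6 kit, per the labels' protocols. The authors deposited 1 FPKM value per gene and library. Tools named in the submitters' processing notes, without role or order, are HISAT2, HTSeq, fastp, DESeq2 and R 3.2.0, and the build is mm10. The sources used here give neither the gene annotation nor the strand setting. Because FPKM divides by each library's total, a few very abundant transcripts shift all others. Values of all 27743 genes were whole multiples of 1 fragment within a relative tolerance of 1e-07, which gave fragments per library.

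Genes with at least 1 FPKM in at least 3 of 18 libraries were kept. limma 3.58.1 in R 4.3.3 was fitted to log2(FPKM + 1) with 6 group means, a mean-variance trend and robust moderation, and was tested on simulated data. Differences on this scale understate those of low genes. The model gave 12 comparisons and 2 F tests. Values per library are given for the 8 ligands and 6 receptors of highest mean FPKM and for the 3 smallest p in each comparison with Control. Other genes are given by group or range, and 1 gene is not reported here by name or value. Alternatives were a pseudocount of 0.1, no filter, a filter of 0.1 FPKM, quantile and TPM scaling, a replicate block, a fit to the groups compared only, voom, and leaving out each library. The genes, lists and tests were chosen with earlier results of these data known. No protein sequences were used here.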

Additional observations from a re-analysis of the deposited data

How the results depend on the processing

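Across 14 comparisons and series and 26 alternative settings, 362 counts of called chemokine genes were 0, as in the report. The exception was 1 called gene, Ccr9, for the mean of the spacer groups against Control with a filter of 0.1 FPKM. In that setting 1 of 49 chemokine genes and 419 of all 17812 genes were called, a similar share. Leaving out each of the 18 libraries in turn gave counts of 0 to 0. For 18 log2 differences from Control with the smallest p, all 465 alternative values kept their direction and stayed past no threshold. Of the other chemokine gene differences given in the report, that of the mean of the spacer groups from Control changed sign for Cxcl3 without Control library 1 (0.08) and for Cxcr2 without Control library 2 (-0.26), and neither passed the test. By Pearson's r the 6 relations with marker lists kept their direction and side of the threshold without subtracting group means and with a pseudocount of 0.1. Without subtracting group means, Ccl27a on keratinocyte markers no longer passed by Spearman's rho, 0.441 (permutation p = 0.068, adjusted 0.0816), and r was 0.350 without Control library 1 and D15L100 library 3. Over all 13078 genes, the mean of the spacer groups against Control gave 466 calls, 285 with voom on recovered fragments, 256 with a replicate block and 0 without Control library 1. Over 27743 genes with no filter it gave 227. With the replicate number as a block, 0 chemokine genes were called in each comparison. Correlations between same-numbered libraries ran from -0.657 to 0.530, and 6, 8 and 4 of 15 pairs passed 0.1 for replicates 1, 2 and 3. So some pairs deviated together and others did not. Whether a number marks a shared animal or batch was not tested. A fit to only the groups compared is the same as the fit reported for the mean of the spacer groups, so it has no value there.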
